A study of Mus musculus with 12 samples.

Results

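High-confidence autism risk genes are genes in which rare damaging variants recur among people with autism. A set of 36 of them was followed through the hippocampus of mice carrying a mutation of Chd8, which is itself an autism risk gene. The set was chosen by gene symbol from a list of risk genes, leaving out the Chd family and the genes for synaptic scaffolds and receptors. It therefore holds regulators of chromatin and transcription, kinases and ubiquitin ligases, translation factors, a sodium channel and proteins of the cytoskeleton. All 36 symbols matched 1 row each among the 46078 gene IDs of the deposited table. All 36 also had a mean of at least 10 normalized counts over the libraries, the minimum for testing, which 17496 gene IDs of the table reached.

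Hippocampal RNA of C57BL/6 mice aged 25 postnatal days was sequenced as 12 libraries, 3 in each of 4 groups. Wild-type males and wild-type females served as the controls for mutant males and mutant females, which were heterozygous for the Chd8 allele Asn2373LysfsX2. The labels name no other allele and no treatment for any group. Whether the 3 libraries within a group stem from different mice is not stated, so the p-values reflect variation among these particular libraries, part of which may be technical.

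The allele is a frameshift at codon 2373 of the 2582 codons of Chd8. That codon lies in exon 36 of 37 of the transcript Chd8-201 and in exon 37 of 38 of Chd8-212, which has as many codons, on the minus strand of the mouse genome build GRCm38 within chr14:52201688-52201714. The reference sequence of that interval is shown because it is the site that separates the groups, with the asparagine codon in capitals. It is read in the direction of the gene, and the changed bases of the mutant allele are not given in the labels.
Chd8 codon 2373, reference: agatgtaaaaaaAATaataaggcagaa

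CHD8 is an ATP-dependent chromatin remodelling enzyme that binds the promoters of many active genes in the developing brain. Other autism risk genes have been described among the genes it binds, and the comparison here asks whether their RNA differs when 1 copy of Chd8 carries the mutation. Many of the genes in the set act on chromatin or transcription themselves, and loss of 1 copy of such a gene is often enough to cause a neurodevelopmental disorder, so small differences in their dose are of interest.

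Values are normalized counts, that is, counts of reads after division by a size factor, 1 for each library. Differences are given on the scale of log2(value + 1) as mutant minus wild type, ± standard error, from limma fitted to all 12 libraries, and p-values were adjusted over the 17496 tested genes with a threshold of 0.05. The mutant libraries held 23721482 to 24654408 reads each and the wild-type libraries 26912998 to 33327314, so depth and genotype cannot be told apart. Chd8 held 2751 to 2994 normalized counts in the 6 wild-type libraries and 2383 to 2513 in the 6 mutant libraries, without overlap. Its difference averaged over the sexes was -0.22 ± 0.026 (limma adjusted p = 0.0289), and it was the only gene past the threshold, 0.00572% of those tested. Leaving out 1 library ended that call in 10 of 12 fits, with differences of -0.24 to -0.21 and limma adjusted p-values from 0.025 to 0.161 over the 12. Hippocampal pyramidal markers summed to 131634 to 156640 and dentate granule markers to 10766 to 12413 normalized counts, with every marker above 0 in every library. All 5 pyramidal markers had differences above 0 averaged over the sexes and in males, where the median was 0.15. Their sums in males were 131634 to 139866 in wild types and 143952 to 156640 in mutants. In females 3 of 5 differences lay above 0, and the sums were 137624 to 156002 in wild types and 144030 to 147638 in mutants. Some marker lists of other cell types had averaged differences of a single sign. All 9 oligodendrocyte markers had differences below 0 in both sexes, with medians of -0.24 in males and -0.25 in females, and summed to 380305 to 486413 in wild types and 299571 to 414976 in mutants. All 5 fibroblast markers and all 5 markers of pericytes and smooth muscle had averaged differences above 0, with medians of 0.18 and 0.20 in males and 1.26 and 0.76 in females. Fibroblast sums in males overlapped, at 2345 to 4595 in wild types and 2269 to 4527 in mutants. All 5 endothelial and all 5 immature neuron markers also had averaged differences above 0. The part of these markers in the genotype differences of the set was not tested. Markers of the choroid plexus, which lies beside the hippocampus in the ventricle, were all 10 above 0 in every library. They summed to 860 to 1022 in mutant male 2, mutant male 3 and wild-type female 1, and to 48083 to 172447 in the other 9 libraries. All 10 had differences below 0 averaged and in males, and above 0 in females, with medians of -3.48 in males and 1.65 in females. All 7 markers of the ependyma, which lines the ventricles, had differences below 0 averaged and in males, where the median was -0.73. In females 5 of the 7 lay above 0. The part of these 2 lists in the genotype differences of the set was not tested. In bulk RNA, fewer cells of a type and less RNA per cell cannot be told apart.

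No autism risk gene of the set passed the threshold between the genotypes. With the sexes averaged, 0 of 36 passed in limma, against 0.00572% of all tested genes. Likewise 0 passed in edgeR, which also called 0.00572% of all genes, and 0 passed in DESeq2, which called 75 genes or 0.429%. DESeq2 gave an adjusted p for 34 of the 36, without Adnp and Foxp2, and for 12747 of all tested genes, of which it called 0.588%. At an unadjusted limma p under 0.05 there were 3 of the 36, or 8.33%, against 8.87% of all tested genes. These were Arid1b and Irf2bpl, higher in mutants (5.56%, against 4.4%), and Trip12, lower in mutants (2.78%, against 4.47%). Of the 36 differences, 22 lay above 0 (61.1%, against 49.9% of all genes). The median over the set was 0.0069, against -7.3e-05 over all tested genes. Without the 3 libraries low in choroid plexus markers, 19 of 36 lay above 0 (52.2% of all genes did) and 2 had an unadjusted limma p under 0.05 (against 8.56% of all genes).

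With the sexes averaged, the spread among these libraries allowed only a narrow range of differences for most of these genes. The 95% confidence interval of the averaged difference lay wholly within 0.1 log2 units of 0, that is within a rise of 7.18% or a fall of 6.7%, for 21 of the 36 genes (58.3%). Among all tested genes this held for 15.4%, and among 53 other autism risk genes, with Chd8 left out, for 52.8%. Within 0.2 log2 units, a rise of 14.9% or a fall of 12.9%, it held for 31 of the 36 (86.1%). The shares were 49.6% of all tested genes and 90.6% of those 53 other risk genes. The 5 genes with intervals reaching further were Adnp, Foxp1, Foxp2, Irf2bpl and Katnal2. Within a single sex, intervals within 0.1 log2 units of 0 were fewer. They numbered 6 of 36 in males (16.7%, against 2.9% of all tested genes) and 9 of 36 in females (25%, against 3.84%). The median interval of the averaged difference reached 0.065 log2 units to either side of the estimate in the set and 0.14 over all tested genes. The set was also well expressed and little variable, with a median SD within groups of 0.049 log2 units, against 0.096 over tested protein-coding genes. By comparison, the 95% interval of Chd8 itself ran from -0.28 to -0.17, and Katnal2 was the only gene of the set whose interval reached the Chd8 estimate of -0.22. The estimates of all 36 genes are plotted by role with their intervals.

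**Figure D1:**
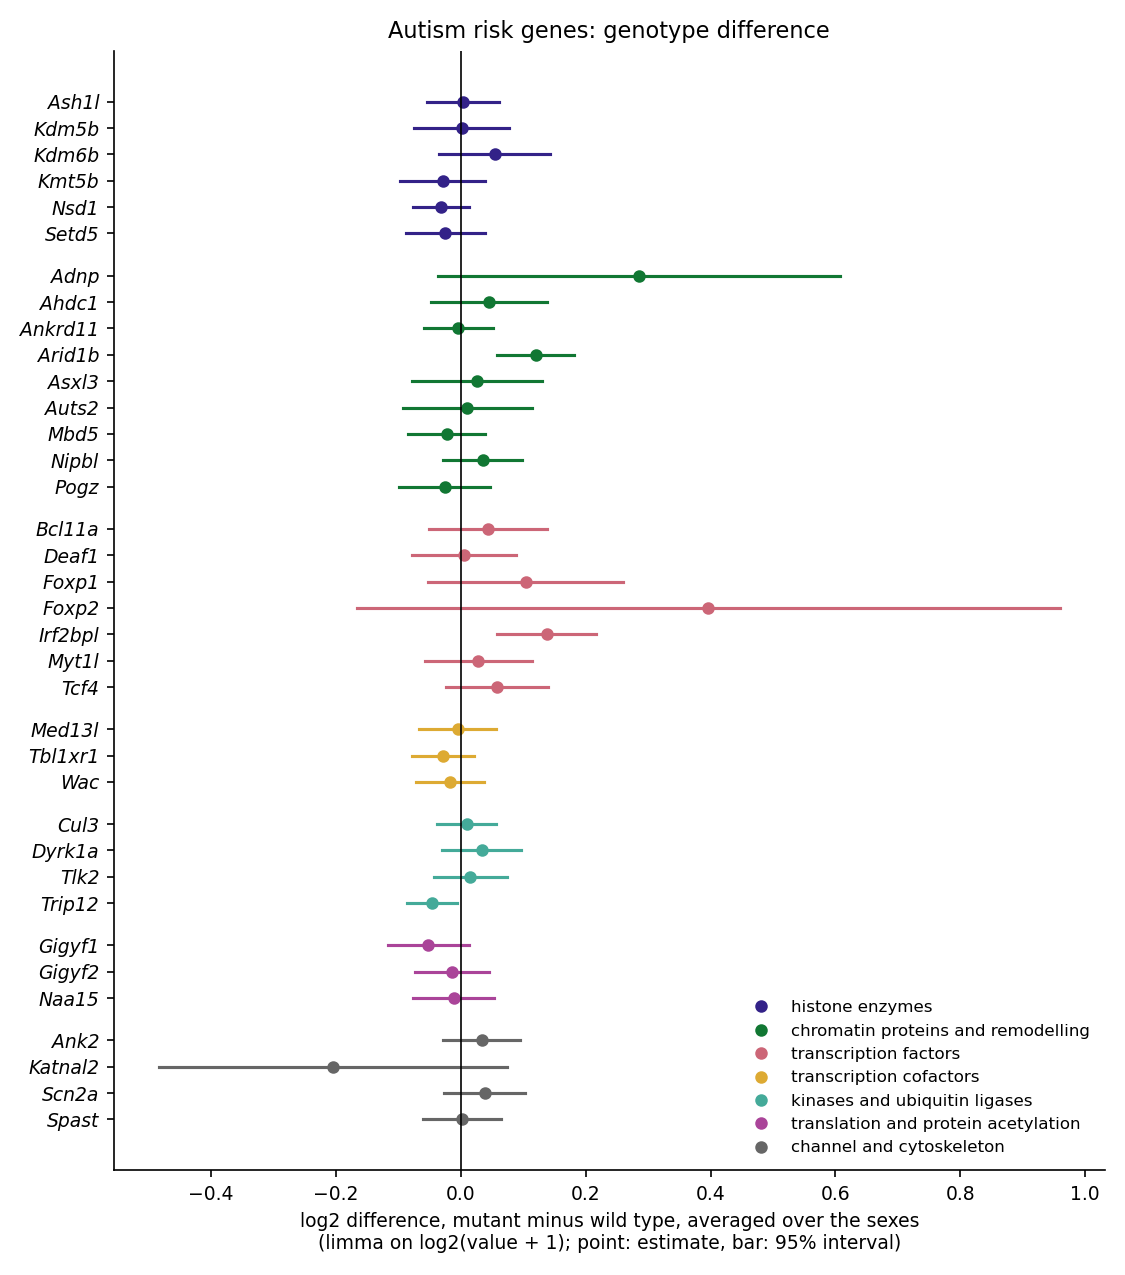
Averaged difference between mutants and wild types for each of the 36 genes, grouped and coloured by role, on the log2(value + 1) scale with 95% confidence intervals from limma. Points lie close to 0 for most genes, the intervals of Arid1b and Irf2bpl lie above 0 and that of Trip12 below, and Foxp2, Adnp and Katnal2 have the widest intervals.

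The 6 histone enzymes add or remove methyl groups on histone tails or carry the domain that does so. Their averaged differences ran from -0.032 to 0.054, with 3 above 0 and 3 below, and 5 of 6 intervals lay within 0.1 log2 units of 0. Ash1l, a methyltransferase of the Trithorax group, held 4940.3 to 5394 normalized counts over the 12 libraries and differed by 0.0034 ± 0.027. Nsd1, the methyltransferase gene mutated in Sotos syndrome, held 6023 to 6386 and differed by -0.032 ± 0.02. For Setd5, a SET-domain protein, the range was 4246 to 4705 and the difference -0.025 ± 0.029. The demethylase Kdm5b differed by 0.00099 ± 0.035 over 2117 to 2379.8, and the methyltransferase Kmt5b by -0.029 ± 0.031 over 1993 to 2311. None of these 5 genes had an unadjusted limma p under 0.05 in any comparison of the genotypes.

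Kdm6b, a demethylase that removes a repressive mark of the Polycomb system, had the largest averaged difference of the histone enzymes. It held 1269.5, 1255 and 1159.7 normalized counts in wild-type males and 1243.5, 1214 and 1333 in mutant males. In females the values were 1074, 1136 and 1212.5 in wild types and 1145, 1198 and 1239 in mutants. The genotypes overlapped in both sexes, and the lowest value was that of wild-type female 1. Averaged over the sexes, the difference was 0.054 ± 0.041 (limma adjusted p = 0.739), and it was 0.022 without the 3 libraries low in choroid plexus markers.

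Among the 9 chromatin proteins and remodelling factors, 6 averaged differences lay above 0 and 3 below. Arid1b, a subunit of the BAF remodelling complex, came closest to a call of the whole set. Its values were 2930.5, 2833 and 3073 normalized counts in wild-type males and 3174, 3414 and 3129.5 in mutant males. Wild-type females held 2967, 2982 and 2978 and mutant females 3209, 3244 and 3134. Every mutant library lay above every wild-type library, at 3129.5 to 3414 against 2833 to 3073. Arid1b was the only 1 of the 36 genes for which the 6 mutant libraries lay above the 6 wild-type libraries (0.303% of all tested genes), and 0 lay wholly below (0.24%). The averaged difference was 0.12 ± 0.029, an estimate of 8.66% with a 95% interval of 4.09% to 13.4%. The unadjusted limma p was 0.0012 and the adjusted p was 0.311 in limma, 0.281 in edgeR and 0.0556 in DESeq2, so it passed in none of them. Over 25 alternative fits the difference stayed between 0.10 and 0.14, with adjusted p-values from 0.0556 to 0.623.

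Nipbl encodes the loader of cohesin, the ring complex that holds chromatin loops and sister chromatids together. Wild-type males held 2182, 2195 and 2109 normalized counts and mutant males 2121, 2014 and 2214.5. Wild-type females held 2045, 2037 and 2116 and mutant females 2137, 2272 and 2240.0. The 3 mutant females lay above the 3 wild-type females, while the males overlapped. The difference was 0.10 ± 0.041 in females (limma unadjusted p = 0.0314, adjusted p = 0.659) and -0.031 ± 0.041 in males. Its male difference minus its female difference was -0.13 ± 0.059 (limma unadjusted p = 0.0432, adjusted p = 0.627). With the sexes averaged it was 0.035, and between 0.018 without mutant male 3 and 0.052 without mutant male 2.

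Adnp, a homeodomain protein that partners with the remodeller Chd4, was measured at a low level that is uncertain. In the GENCODE annotation, 82.1% of its exon bases are shared on the same strand with the model Gm20716, which is listed at 0 in all 12 libraries. How reads that fall on both models were treated is not stated. Adnp held 43.5, 37.9 and 38.7 normalized counts among wild-type males against 43.1, 44.2 and 56.5 among mutant males. Among females it held 29.1, 50.3 and 39 without the mutation and 55.3, 42.3 and 48.6 with it. The genotypes overlapped in both sexes, and wild-type female 1 was the lowest library. The averaged difference was 0.29 ± 0.15 (limma adjusted p = 0.601), or 0.19 without wild-type female 1 and 0.12 without the 3 libraries low in choroid plexus markers.

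The other 6 chromatin proteins differed by less. Ahdc1, which has an AT-hook, differed by 0.045 ± 0.043 over 1368 to 1709.6 normalized counts, and Ankrd11, a partner of histone deacetylases, by -0.0041 ± 0.026 over 7264 to 7828. Asxl3, a cofactor in Polycomb deubiquitination, differed by 0.026 ± 0.048 over 487 to 576. Auts2, a component of an activating Polycomb complex and the longest gene of the set, differed by 0.011 ± 0.047 over 2462 to 2933. The values of Mbd5, a methyl-CpG-binding-domain protein, were 2071 to 2269 with a difference of -0.023 ± 0.028, and those of the zinc finger protein Pogz were 1957 to 2186 with -0.026 ± 0.034. In females Ahdc1 reached 0.13 ± 0.06 (limma unadjusted p = 0.051), the nearest miss of an unadjusted p of 0.05 in that sex.

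All 7 transcription factors had an averaged difference above 0, with a median of 0.058 (49.9% of all tested genes lay above 0). Over the alternative fits 6 or 7 did, where the fit at a minimum mean of 50 had no value for Foxp2. Of the 7 factors, Irf2bpl alone had an unadjusted limma p under 0.05 with the sexes averaged. In males all 7 were also above 0 (against 50.6% of all tested genes), in females 4 were (against 50.5%). Without the 3 libraries low in choroid plexus markers the count was 6 with the sexes averaged, 3 in males and 6 in females, so the male count moved with those libraries.

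Irf2bpl, a single-exon gene for a zinc finger protein at chr12:86880701-86884798 on the minus strand, had the largest positive difference among the members above 100 normalized counts. Its promoter is therefore shown as the 250 bases before the start site in RefSeq (GRCm38.p6, chr12:86884815-86885064, minus strand, read in the direction of the gene). Capitals mark TGACGTCA, the binding motif of cAMP-responsive factors, which a search found there.
Irf2bpl promoter: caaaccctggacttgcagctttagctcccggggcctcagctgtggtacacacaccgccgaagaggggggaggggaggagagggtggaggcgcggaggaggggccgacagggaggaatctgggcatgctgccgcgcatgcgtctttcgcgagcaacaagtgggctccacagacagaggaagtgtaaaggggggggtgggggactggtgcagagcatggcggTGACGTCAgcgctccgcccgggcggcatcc
Wild-type males held 1522, 1628 and 1472 normalized counts of Irf2bpl and mutant males 1703, 1703 and 1621. Wild-type females held 1701, 1575 and 1557 and mutant females 1878, 1708 and 1786. Mutant females lay above wild-type females without overlap, and in males the highest wild-type library lay just above the lowest mutant library. The averaged difference was 0.14 ± 0.037, or 9.996% with a 95% interval of 4.09% to 16.2%. The limma unadjusted p was 0.0027 and the adjusted p was 0.340 in limma, 0.347 in edgeR and 0.141 in DESeq2. Over 25 alternative fits it stayed between 0.12 and 0.17 with adjusted p-values from 0.141 to 0.626.

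Foxp2, a forkhead factor known for its part in speech and vocal learning, had the largest averaged difference of the 36 genes and the lowest level of them per kilobase of exon. It held 49.4, 39.8 and 25.8 normalized counts in wild-type males and 35.4, 47.7 and 34.8 in mutant males. In females it held 55.4, 28.7 and 30.7 in wild types and 56.4, 105 and 38.5 in mutants. The genotypes overlapped in both sexes, and mutant female 2 stood far above every other library. That library was also the highest in markers of fibroblasts, which summed to 7978 normalized counts in it and to 1783 to 4986 elsewhere, and of pericytes and smooth muscle, at 12138 against 6530 to 8813. The part of these markers in the value of Foxp2 was not tested. The averaged difference was 0.40 ± 0.26 (limma adjusted p = 0.685) and was 0.20 without mutant female 2.

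The remaining transcription factors were better measured. Foxp1, a forkhead factor related to Foxp2, held 1324 to 1758 normalized counts and differed by 0.10 ± 0.072 (limma adjusted p = 0.706). Its 3 lowest libraries were wild-type female 3, wild-type male 1 and mutant male 1, and CA1 neuron markers were lowest in wild-type female 3 and mutant male 1, at 7607 and 8302 normalized counts against 10548 to 14582 elsewhere. The part of these markers in the difference of Foxp1 was not tested. Tcf4, a basic helix-loop-helix factor mutated in Pitt-Hopkins syndrome, held 12380.1 to 14421 and differed by 0.058 ± 0.038. Bcl11a, a zinc finger repressor, differed by 0.043 ± 0.043 over 1977 to 2337, and its 3 mutant males lay above the 3 wild-type males. For Myt1l, a neuronal zinc finger factor, the difference was 0.028 ± 0.04 over 6198 to 7351, and for the SAND-domain factor Deaf1 it was 0.0046 ± 0.038 over 1394 to 1624.

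The 3 transcription cofactors all had averaged differences just below 0. Med13l, part of the kinase module of Mediator, differed by -0.0054 ± 0.028 over 3108 to 3424 normalized counts. Wac, an adaptor of histone ubiquitination, differed by -0.017 ± 0.025 over 3228 to 3564. Tbl1xr1, a subunit of the nuclear receptor corepressor complexes, held 2687, 2600.0 and 2569.5 in wild-type males and 2575, 2667 and 2597 in mutant males. In females it held 2601, 2551 and 2668 in wild types and 2511, 2527 and 2493.5 in mutants. The 3 mutant females lay below the 3 wild-type females, and the males overlapped. The difference was -0.029 ± 0.023 with the sexes averaged (limma adjusted p = 0.754) and -0.054 ± 0.032 in females (limma adjusted p = 0.808).

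The 4 kinases and ubiquitin ligases had the narrowest intervals of the 7 roles by their median, and all 4 intervals of the averaged difference lay within 0.1 log2 units of 0. Trip12, a HECT-domain ubiquitin ligase, held 7225, 7393 and 7432 normalized counts in wild-type males and 7089.5, 7015 and 7042 in mutant males. Wild-type females held 7028, 7135 and 7151 and mutant females 6962, 6931 and 6959. Mutants lay below wild types without overlap within each sex, although wild-type female 1 lay below mutant males 1 and 3. Its averaged difference was -0.046 ± 0.018, an estimate of -3.13% with a 95% interval of -5.79% to -0.4%. The unadjusted limma p was 0.0283 and the adjusted p 0.491, so it did not pass. Over 25 alternative fits the difference stayed between -0.052 and -0.041, with adjusted p-values from 0.384 to 0.720.

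Cul3, the scaffold of a family of ubiquitin ligases, held 3679.5 to 4017 normalized counts with an averaged difference of 0.0092 ± 0.022. Dyrk1a, a kinase encoded in the Down syndrome region of the human genome, held 2088 to 2323 with a difference of 0.033 ± 0.029, and the kinase Tlk2 held 1325 to 1431 with 0.015 ± 0.027. The range of each over the 12 libraries spanned less than a factor of 1.2.

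The 3 genes of translation and protein acetylation all had averaged differences below 0. Gigyf1 takes part in the repression of translation, and it held 2531, 2728 and 2636.5 normalized counts in wild-type males and 2439, 2623 and 2372 in mutant males. Its values were 2546.5, 2501 and 2598 in wild-type females and 2505, 2559 and 2495 in mutant females. The genotypes overlapped in both sexes. Averaged over the sexes, the difference was -0.052 ± 0.03 (limma adjusted p = 0.647). Gigyf2, its close relative, differed by -0.015 ± 0.027 over 2287 to 2508. It shares 4.38% of its exon bases, on the opposite strand, with the choroid plexus gene Kcnj13, and since the library kit does not keep strand these reads cannot be told apart. Kcnj13 itself held 3.63 to 276 normalized counts, and Gigyf2 in the 3 libraries low in choroid plexus markers lay inside the range of the other 9. Naa15, a subunit of an amino-terminal acetyltransferase, differed by -0.012 ± 0.03 over 2057 to 2234.

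Of the sodium channel and the 3 cytoskeletal genes, 3 had an averaged difference above 0. Scn2a, the sodium channel of the axon initial segment of excitatory neurons, held 9440.0, 9896 and 10166 normalized counts in wild-type males and 10307, 10396 and 10909 in mutant males. Its values were 10429.5, 10527 and 9700.4 in wild-type females and 9964.5, 9840.3 and 10329 in mutant females. Mutant males lay above wild-type males without overlap, while the females overlapped. The difference was 0.10 ± 0.042 in males (limma unadjusted p = 0.0341, adjusted p = 0.459) and -0.024 ± 0.042 in females. In a fit with the choroid plexus score of each library as a covariate, the male difference was 0.065 (limma unadjusted p = 0.206). All 5 hippocampal pyramidal markers also had male differences above 0, and their part in the difference of Scn2a was not tested. Ank2, which anchors channels to the membrane skeleton, held 19385 to 21213 and differed by 0.033 ± 0.028.

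Spast, a microtubule-severing enzyme, held 2127, 2106 and 2058 normalized counts in wild-type males and 2175, 2100.1 and 2308 in mutant males. Wild-type females held 2241.5, 2141.5 and 2123 and mutant females 2121.5, 2076 and 2037.5. Mutant females lay below wild-type females by a narrow gap and males overlapped, and the averaged difference was 0.0018 ± 0.029. The male difference minus the female difference was 0.13 ± 0.057 (limma unadjusted p = 0.048, adjusted p = 0.635). Values in every library are plotted for Spast and 5 other members.

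**Figure D2:**
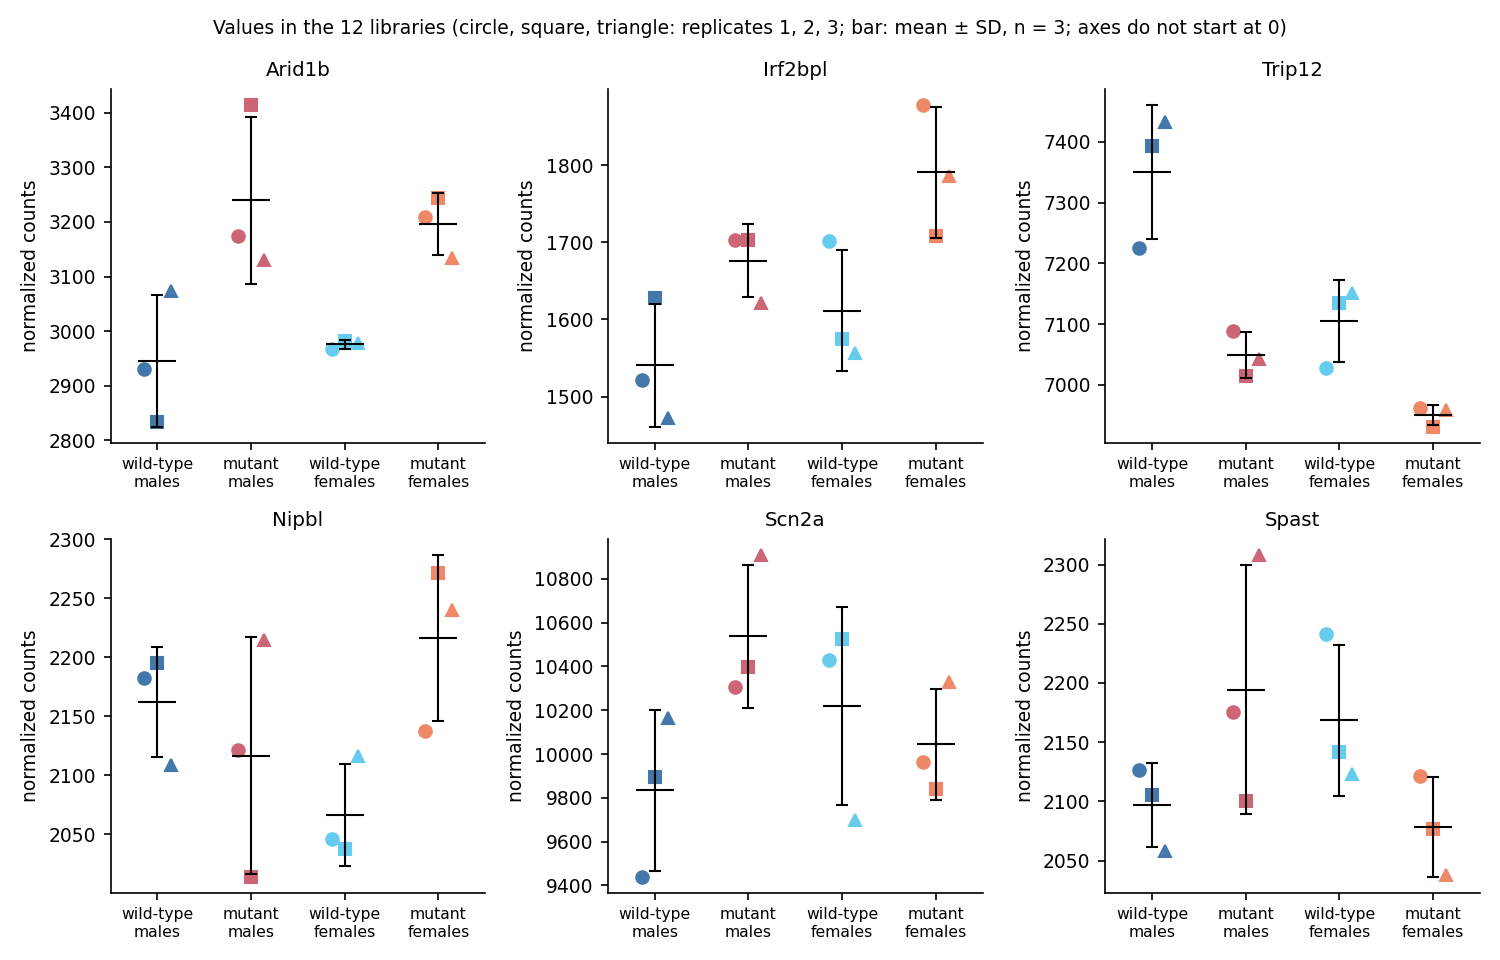
Normalized counts (y axes, not starting at 0) of 6 autism risk genes in the 4 groups, with circle, square and triangle for replicates 1, 2 and 3 and bars for the mean ± SD (n = 3). Arid1b shows all 6 mutant libraries above all 6 wild-type libraries, Trip12 shows mutants below wild types within each sex, and Nipbl, Scn2a and Spast show genotype gaps in 1 sex only.

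Within males, 0 of 36 genes passed the threshold in limma, against 0% of all tested genes, and 0 passed in DESeq2, against 0.2%. DESeq2 gave an adjusted p in males for only 26 of the 36 and 3928 of all tested genes, and it called 0.891% of those 3928. The 10 members without an adjusted p included Irf2bpl and Katnal2. An unadjusted limma p under 0.05 was reached by 5 of 36 (13.9%, against 10.3% of all genes), namely Arid1b, Irf2bpl and Scn2a with higher values in mutants (8.33%, against 4.1%) and Trip12 and Katnal2 with lower values (5.56%, against 6.23%). The 3 mutant males lay above the 3 wild-type males for 3 genes, Arid1b, Bcl11a and Scn2a (8.33%, against 8.37% of all genes). They lay below for 3, Nsd1, Trip12 and Katnal2 (8.33%, against 7.68%). Differences above 0 were counted for 23 of 36 (63.9%, against 50.6%), with a median of 0.01. Leaving out the 3 libraries low in choroid plexus markers kept 1 mutant male, which was assumed to vary like the other groups. The count above 0 was then 14 (against 49.9% of all genes), the median was -0.023 and 0 members had an unadjusted limma p under 0.05 (against 7.76%).

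Within females, 0 of 36 genes passed the threshold in limma, against 0% of all tested genes, and 0 passed in DESeq2, against 0.0629%. Adnp, Foxp2 and Katnal2 had no adjusted p in DESeq2, which called 0.113% of the 9694 tested genes that had one. Arid1b, Nipbl and Irf2bpl had an unadjusted limma p under 0.05, 3 of 36 or 8.33% against 6.9% of all genes. All 3 were higher in mutants (against 3.82%) and 0 were lower (against 3.07%). The same 3 genes were those whose mutant females lay wholly above the wild-type females (8.33%, against 5.14%). Mutant females lay wholly below for 3, Tbl1xr1, Trip12 and Spast (8.33%, against 5.66%). Differences above 0 were counted for 17 of 36 (47.2%, against 50.5%) with a median of -0.0046. Without the 3 libraries low in choroid plexus markers, 21 lay above 0 (against 50.4% of all genes). Of the 36, 5 then had an unadjusted limma p under 0.05 (against 8.53%), namely Ahdc1, Arid1b, Foxp1, Foxp2 and Irf2bpl, and the same 5 did in the fit that took the choroid plexus score into the model (against 8.17%).

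The test of the male against the female difference called 0 of 36 genes in limma, against 0% of all tested genes, and 0 in DESeq2, against 0.0171%. At an unadjusted limma p under 0.05 there were 3 of 36 (8.33%, against 7.85%), which were Spast with the male difference above the female (2.78%, against 2.44%) and Nipbl and Katnal2 with it below (5.56%, against 5.41%). The male difference lay above the female for 19 of 36 (52.8%, against 51.6%). The genotype difference had the same sign in both sexes for 20 of 36 genes, 12 higher and 8 lower, or 55.6% against 51.5% of all tested genes. It was above 0 in males and below 0 in females for 11, and the reverse for 5.

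**Figure D3:**
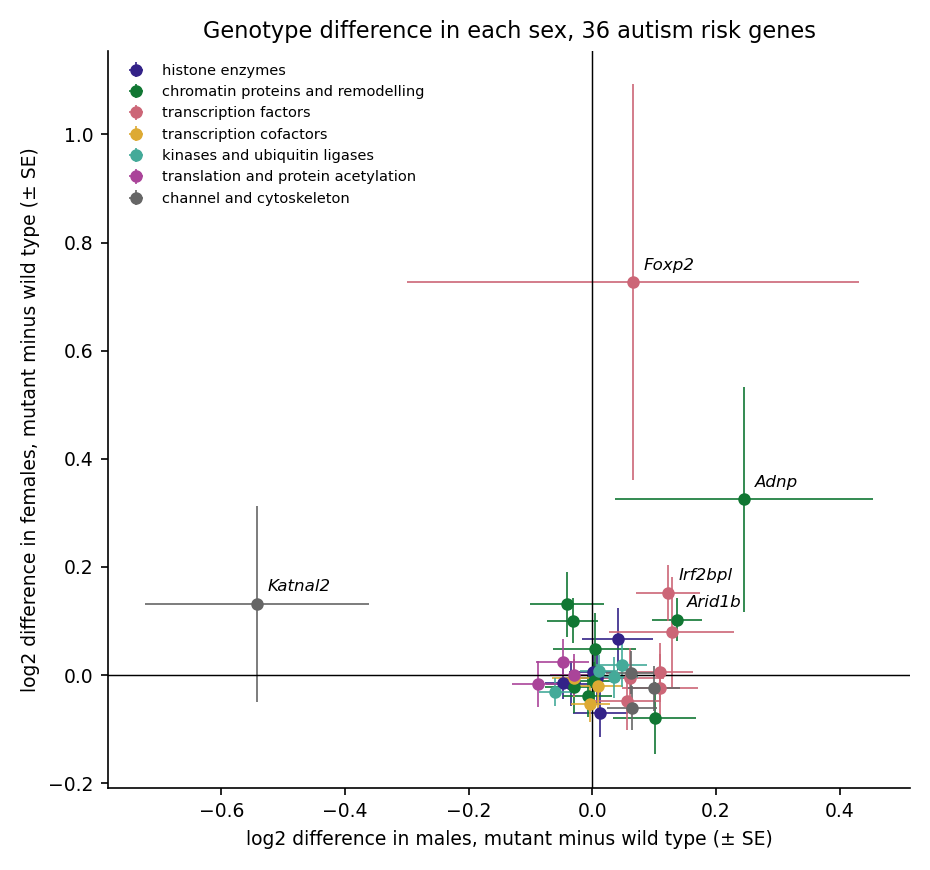
Difference between mutants and wild types in males (x axis) against females (y axis) for the 36 genes, log2(value + 1) scale, bars ± standard error from limma, coloured by role. Most genes lie within 0.2 of 0 on both axes, Arid1b and Irf2bpl lie above 0 on both, and Katnal2 lies at -0.54 in males and 0.13 in females.

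Katnal2 showed the largest difference within males and the largest male minus female difference by size, just ahead of Foxp2. It encodes a katanin-like protein related to microtubule-severing enzymes, and held 256, 226 and 219 normalized counts in wild-type males and 202, 135 and 149 in mutant males. Wild-type females held 137, 168 and 226 and mutant females 182, 179 and 210.4. Mutant males lay below wild-type males without overlap, and the females overlapped. The difference was -0.54 ± 0.18 in males (limma unadjusted p = 0.011, adjusted p = 0.421) and 0.13 ± 0.18 in females. The male minus the female difference was -0.67 ± 0.26 (limma unadjusted p = 0.0216, adjusted p = 0.619), and neither passed.

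The 3 lowest libraries of Katnal2, at 135 to 149 normalized counts, were mutant male 2, mutant male 3 and wild-type female 1, the same 3 that were low in choroid plexus markers. The other 9 libraries held 168 to 256. Markers of the ependyma, whose ciliated cells line the ventricles, also summed lowest in those 3 libraries. All 7 were above 0 in every library, and their sum was 869, 1410 and 1081 in the 3 and 1601 to 2286 in the other 9. Foxj1, the most abundant of them and the master regulator of motile cilia, held 335 to 465 in the 3 and 585 to 775 in the 9. Without these 3 libraries the male difference of Katnal2 was -0.20 (limma unadjusted p = 0.286), and it was -0.17 once the choroid plexus score entered as a covariate (limma unadjusted p = 0.190). The male minus the female difference was -0.17 and -0.12 in the same fits. The wild-type males held 219 to 256 and the single mutant male with choroid plexus markers held 202. Markers of the striatum summed lowest in the same 3 libraries too, at 1089 to 1351 normalized counts against 1424 to 2156 in the other 9. The part of choroid plexus, ependyma and striatum markers in the differences of Katnal2 was not tested.

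**Figure D4:**
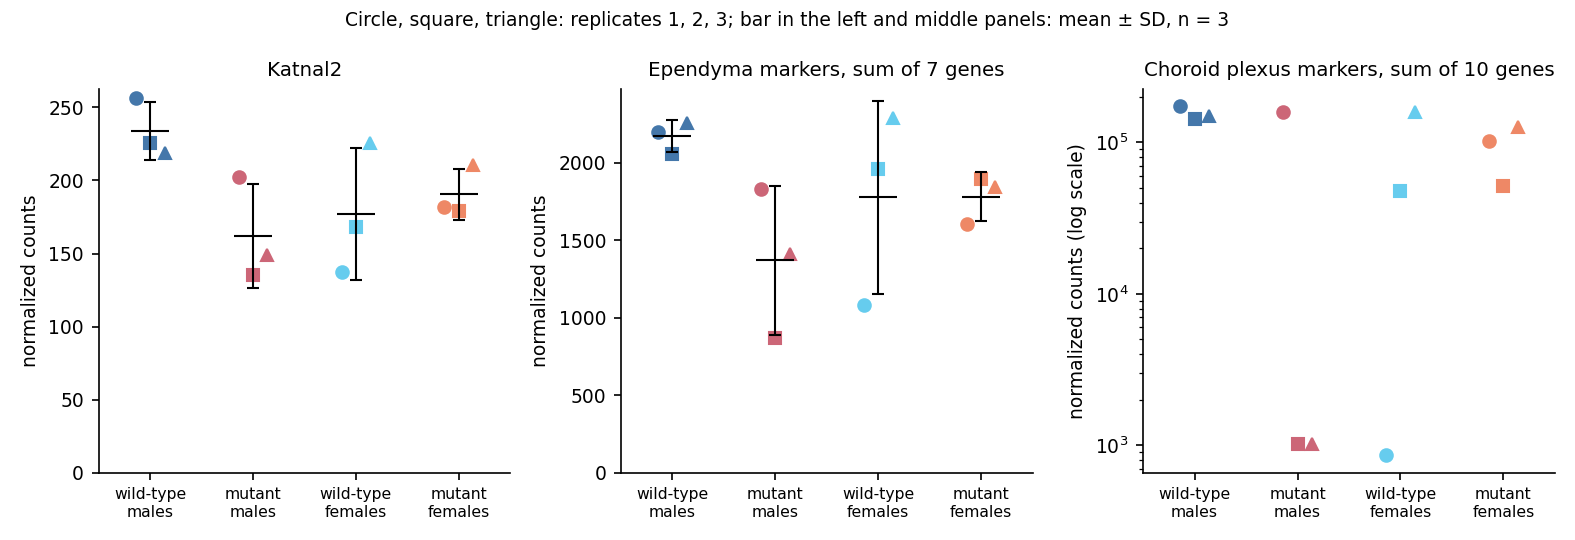
Normalized counts of Katnal2 (left), the summed ependyma markers (middle) and the summed choroid plexus markers (right, log axis) in the 12 libraries, with circle, square and triangle for replicates 1, 2 and 3 and mean ± SD (n = 3) in the left and middle panels. Mutant males 2 and 3 and wild-type female 1 are the 3 lowest libraries in every panel.

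Katnal2 was the only 1 of the 36 genes that lay lower in all 3 of those libraries than in all other 9 (2.78%, against 4.23% of all tested genes). Myt1l and Ank2 lay higher in all 3 (5.56%, against 1.37%). Myt1l held 7166 to 7351 normalized counts in the 3 and 6198 to 7147 in the 9, and Ank2 held 20809 to 21213 against 19385 to 20388. These 3 libraries were picked for their choroid plexus markers and not by genotype, and 2 of them are mutant males.

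Between the sexes, with the genotypes averaged, 0 of 36 genes passed the threshold, against 0.0686% of all tested genes, which was 12 genes. Kdm6b, Cul3 and Irf2bpl had an unadjusted limma p under 0.05 (8.33%, against 6.64%), 2 higher in males (5.56%, against 3.1%) and 1 higher in females (2.78%, against 3.54%). The male minus female difference was 0.094 ± 0.041 for Kdm6b, 0.055 ± 0.022 for Cul3 and -0.08 ± 0.037 for Irf2bpl, with limma adjusted p-values of 0.727, 0.654 and 0.749. None of the 36 genes lies on the X chromosome.

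The 36 genes covered a wide range of levels. Per kilobase of exon, the highest were Scn2a at 798 normalized counts, Cul3 at 786, Ank2 at 574 and Wac at 573, as means of the 12 libraries. Myt1l and Tcf4 followed at 490 and 483. The lowest were Foxp2 at 2.79, Adnp at 8.23, Asxl3 at 33.4 and Katnal2 at 47. The median of the set was 236, against 142 for the 14929 tested protein-coding genes. Libraries differed little for most members: the highest library was 1.07 times the lowest for Trip12, 1.06 times for Nsd1 and 1.2 times for Arid1b, but 4.08 times for Foxp2, 1.94 times for Adnp and 1.9 times for Katnal2.

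The genes of the set were also long. Their median span was 114 kb, against 25.2 kb for tested protein-coding genes, and 20 of 36 (55.6%) spanned more than 100 kb, against 15.5%. Auts2 was the longest at 1106 kb (chr5:131437333-132543344) and Irf2bpl the shortest at 4.098 kb. They lie on 16 chromosomes, and 22 of the 36 share no exon base with another annotated gene. Of the 14 that do, 13 share under 10% and Adnp shares 82.1%.

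**Figure D5:**
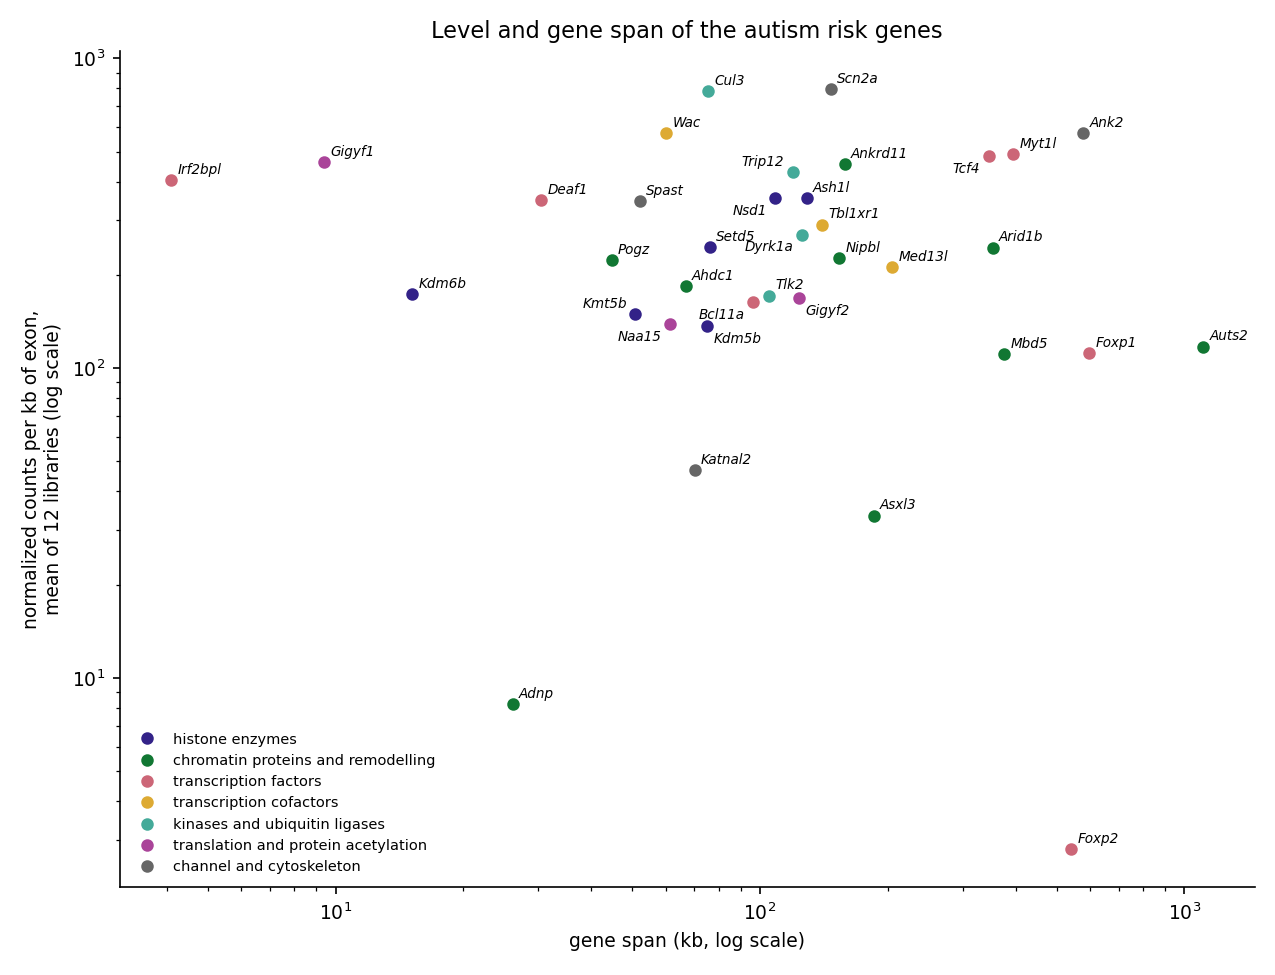
Mean level in normalized counts per kilobase of exon (y axis, log scale) against gene span in kilobases (x axis, log scale) for the 36 genes, coloured by role. Foxp2, at 2.79, and Adnp, at 8.23, lie far below the rest, and Auts2, at 1106 kb, is the longest.

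Promoter windows of RefSeq were matched for 26 of the 36 genes, in 42 windows of 250 bases before a start site. The windows of the set held a median of 15 CpG and 61.4% G and C, against 6 CpG and 52.4% over all 32851 windows of the table. The motif CCGGAA of ETS factors was found on either strand in 2 of 42 windows (4.76%), against 12% of all windows. TGACGTCA was found in 1 of 42 (2.38%, the Irf2bpl window printed with its values), against 1.55%. The motif GCCATNTT of YY1 was found in 4 of 42 (9.52%), against 3.91%. None of the 3 motifs contains another, several windows belong to the same gene, and a match describes letters in the window only.

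Chd8 was 1 of 54 other autism risk genes on a companion list that covers the synapse, signalling and further chromatin regulators. All 54 were tested, and 1 passed with the sexes averaged, Chd8 itself, which is lower in mutants. Of the other 53, 28 differences lay above 0 and 25 below, with a median of 0.0052. Among those with the smallest p-values were the potassium channel Kcnma1 at 0.077 ± 0.038, the adhesion protein Nlgn2 at 0.063 ± 0.031 and the phosphatase subunit Ppp2r5d at 0.044 ± 0.023, with limma adjusted p-values of 0.580, 0.583 and 0.604. By role, 16 of 17 genes of synapses, receptors and channels had an averaged difference above 0, and 16 of 17 did in males but 7 of 17 in females. Without the 3 libraries low in choroid plexus markers these counts were 9, 11 and 11 of 17. Of the 26 other regulators of chromatin and transcription, Chd8 included, 5 lay above 0 with the sexes averaged, 11 in males and 8 in females. With the sexes averaged there were 12 without those libraries, 5 with the covariate and 4 to 16 over all fits. Of all tested genes, 49.9% lay above 0 with the sexes averaged, 50.6% in males and 50.5% in females. The averaged share was 52.2% without those libraries and 50.3% with the covariate.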

How the data were processed

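Per the labels' protocols, libraries were made with Illumina's TruSeq kit v2, which does not keep strand. Named in the submitters' processing notes are the build GRCm38, HTSeq, DESeq2, TopHat2 2.1.0 and Trimmomatic 0.35, with no annotation release. Each deposited value is a signal for 1 Ensembl gene ID, namely read counts that the authors divided by 1 size factor per library, as read from the values: each was a whole multiple of its library's step (100% within 0.0001 reads), and steps matched recomputed median-ratio size factors. Recovered reads gave each library's depth.

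Symbols and positions came from GENCODE M21 (GRCm38), which matched 45143 of 46078 IDs. The 17496 IDs with a mean of 10 or more were fitted with limma 3.58.1 (trend option, R 4.3.3) on log2(value + 1), which understates differences of low genes, with 1 mean per group over 12 libraries and 8 residual degrees of freedom. P-values are two-sided and Benjamini-Hochberg adjusted over all tested genes. Alternatives, 27 fits in all, used other pseudocounts, filters and scalings, edgeR 4.0.16 and DESeq2 1.42.0 on the recovered reads, limma-voom, thinned reads, a replicate block, either sex alone and each library left out. Of the 27, 2 were added after seeing the data and left out the 3 libraries low in choroid plexus markers or took the mean log2 level of those markers as a covariate. The code was tested on simulated data.

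The members and all lists were chosen with earlier results of these data known. Library values were printed for the 12 members with an unadjusted p under 0.05 in a genotype contrast or an adjusted p under 0.05 between the sexes, or with the largest averaged difference of their role; for the other risk genes, the rule was Chd8 and at most the 4 with the smallest p, of which 1 is not reported here. Chi-square tests found no pair of libraries of a group within sampling noise.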

Additional observations from a re-analysis of the deposited data

How the results depend on the processing

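The number of members past the threshold was recomputed 127 times over the 5 contrasts and 27 alternative fits and was above 0 in 0 of them. In the genotype contrasts, the smallest adjusted p of a member was 0.0556, for Arid1b in DESeq2. DESeq2 gave no adjusted p for 2 members with the sexes averaged, 10 in males and 3 in females, which could not be counted. The 27 fits include reads thinned to the smallest library. Of all tested genes, limma called 1 with the sexes averaged, DESeq2 75, limma without a filter on low values 0, and limma without the 3 libraries low in choroid plexus markers 82. Without those libraries and with DESeq2, in that order, the count was 12 and 35 in males, 1 and 11 in females and 2 and 3 by sex, against 0 in limma on all libraries, and 34 and 48 between the sexes, against 12. Leaving out each library in turn gave 0 to 8 genes with the sexes averaged, 8 without mutant male 3, and 0 to 1 in males, in females and by sex.

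Without a filter the Chd8 difference was -0.22 with a limma adjusted p of 0.0538, and 0 of the other risk genes passed. Leaving out single libraries gave Chd8 differences of -0.24 to -0.21, with 0 to 1 of those genes passing. Members above 0 in males fell from 23 to 15 with the choroid plexus covariate and to 14 without the 3 libraries, and their median moved to -0.0197 and -0.0235. By sex, that median moved to -0.033 and -0.0358. The averaged difference of Spast, 0.0018, changed sign to -0.0051 with the covariate and ran from -0.0166 to 0.0174 with single libraries left out. The cause of these moves was not tested. Members at an unadjusted limma p under 0.05, 3 with the sexes averaged, numbered 6 without mutant male 1 (against 11.2% of all tested genes) and 5 without wild-type female 1 (against 11.3%). In males, where there were 5, the count was 3 without wild-type male 2 or 3 (against 7.04% and 7.54%). It was 7 without wild-type female 3 (against 11.4%) and 6 without mutant male 1 (against 12.3%). In females, where there were 3, it was 1 without mutant female 1 (against 5.3%). By sex, also 3, it was 7 without wild-type female 3 (against 12.4%). It was 1 without mutant female 3, mutant male 2, wild-type female 1 or wild-type male 1 or 2 (against 5.55% to 6.65%). Foxp2 and Adnp have no value at a minimum mean of 50.

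The labels reuse numbers 1 to 3 in every group. Same-numbered libraries deviated from their group means with correlations of -0.58 to 0.29, and differently numbered libraries with -0.39 to 0.59. Whether a shared number marks a shared batch cannot be told from these ranges. With the replicate number as a block, 0 members, 0 genes of the averaged comparison and 0 other risk genes passed, and Chd8 was at -0.22 (limma adjusted p = 0.131). By sex, 1 member then had an unadjusted limma p under 0.05 (against 7.22% of all tested genes), as did 1 without a filter on low values (against 6.28%). In bulk tissue at this depth and with the sexes averaged, differences beyond 0.2 log2 units lay outside the intervals of 31 of the 36 members. The widest intervals were those of Foxp2, Adnp and Katnal2.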
